A study of Mus musculus with 11 samples.

Results

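The BCL2 family decides at the outer mitochondrial membrane whether a stressed cell dies, and 10 of its genes were followed here through 11 libraries of renal CD4+ T cells taken after kidney ischemia-reperfusion injury (IRI). The members were picked by gene symbol, as 10 of the 35814 symbols in the count table, namely the anti-apoptotic genes Bcl2, Mcl1 and Bcl2l1, the effectors Bax and Bak1, and the BH3-only genes Bcl2l11, Pmaip1, Bbc3, Bid and Bad. The rule states no measured value, but the list was drawn up with earlier results of these libraries known, so the test results below are descriptions of the members and nothing is supported with them. The libraries came from C57BL/6 mice on day 2 after IRI and were labelled CD4cre (3 mice, the control, whose genotype the labels give as WT), CD4IKK1Δ (5 mice) or CD4NIKΔ (3 mice). According to the methods of the study, the animals were males of 8 to 12 weeks with both renal pedicles clamped for 45 min. All 3 groups carried Cre recombinase under the CD4 promoter. The CD4IKK1Δ group carried in addition a floxed IKK1 gene (Chuk), and the CD4NIKΔ group a floxed NIK gene (Map3k14). The CD4 promoter is also active in CD4+CD8+ thymocytes, so the deletion is not limited to mature CD4+ cells. No library of a sham-operated mouse was analysed here.

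In healthy cells the effectors BAX and BAK are held in check, and once freed they permeabilize the outer mitochondrial membrane, so that cytochrome c escapes and caspases are activated. BCL-2, MCL-1 and BCL-XL (from Bcl2l1) prevent this by binding the effectors and the BH3-only proteins, while BH3-only proteins such as BIM (from Bcl2l11), PUMA (Bbc3) and NOXA (Pmaip1) neutralize them or activate the effectors directly. In T cells, BCL-2 and MCL-1 keep resting and memory cells alive, BCL-XL is induced on activation, and BIM is a main trigger of the death of activated cells once the response ends.

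RNA was sequenced in bulk, with total estimated counts of 15751632 to 25737046 per library. In such samples, fewer cells of a type and less RNA per cell cannot be told apart. The T cell content of the libraries was unequal. The summed level of 15 T cell markers, each detected above 3 counts in at least 1 library of every group, ran from 1437 to 2799 CPM (estimated counts scaled to the library total and by TMM factors) in CD4cre, from 17.3 to 1262 CPM in CD4IKK1Δ and from 7582 to 11704 CPM in CD4NIKΔ. The libraries labelled CD4IKK1Δ replicates 1 and 2 stood apart, with 41 and 868 counts of the T cell receptor constant genes against 5277 to 11413 in the other 3 of the group, and the main results that rest on them are also given without them. Neuronal markers, which a sorted T cell should not express, summed to 2597 to 3245 CPM in CD4cre, 3341 to 3869 CPM in CD4IKK1Δ and 887 to 1780 CPM in CD4NIKΔ. Neither targeted gene was called lower under its label. Chuk had 432, 683 and 325 counts in CD4cre against 258, 406, 394, 307 and 588 in the libraries labelled CD4IKK1Δ (FDR = 0.921, where FDR is the Benjamini-Hochberg adjusted p of edgeR's quasi-likelihood test over all genes tested). Map3k14 had 506, 403 and 294 counts in CD4cre against 232, 626 and 337 in the libraries labelled CD4NIKΔ (FDR = 0.575). In the libraries labelled CD4IKK1Δ, Map3k14 had 29, 94, 109, 186 and 170 counts, 3.00-fold lower than in CD4cre without overlap (FDR = 0.148 with edgeR, adjusted p = 0.0165 with DESeq2). Counts summed over a gene do not resolve the floxed exons, so they are no check of either deletion, and every direction below rests on the labels.

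The promoters of Bcl2, Bax and Mcl1 are shown because these 3 members had the highest mean CPM over the 11 libraries among those with a single start site in RefSeq. They span 250 bases before to 50 after that site on GRCm38.p6, with the bases after it in capitals. They lie at chr1:106714241-106714540 on the minus strand (Bcl2), chr7:45466849-45467148 on the minus strand (Bax) and chr3:95658471-95658770 on the plus strand (Mcl1).
Bcl2: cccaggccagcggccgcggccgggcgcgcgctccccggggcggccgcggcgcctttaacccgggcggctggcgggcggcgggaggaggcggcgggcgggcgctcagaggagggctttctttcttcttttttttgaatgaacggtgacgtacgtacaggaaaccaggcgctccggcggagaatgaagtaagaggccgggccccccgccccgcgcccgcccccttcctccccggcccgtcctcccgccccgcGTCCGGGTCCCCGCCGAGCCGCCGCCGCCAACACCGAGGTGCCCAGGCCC
Bax: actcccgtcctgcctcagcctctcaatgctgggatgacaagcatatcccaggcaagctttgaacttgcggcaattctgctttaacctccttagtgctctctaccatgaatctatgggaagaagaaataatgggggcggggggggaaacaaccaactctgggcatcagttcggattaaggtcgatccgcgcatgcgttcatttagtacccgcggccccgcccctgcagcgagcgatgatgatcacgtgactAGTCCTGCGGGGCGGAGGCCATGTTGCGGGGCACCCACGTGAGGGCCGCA
Mcl1: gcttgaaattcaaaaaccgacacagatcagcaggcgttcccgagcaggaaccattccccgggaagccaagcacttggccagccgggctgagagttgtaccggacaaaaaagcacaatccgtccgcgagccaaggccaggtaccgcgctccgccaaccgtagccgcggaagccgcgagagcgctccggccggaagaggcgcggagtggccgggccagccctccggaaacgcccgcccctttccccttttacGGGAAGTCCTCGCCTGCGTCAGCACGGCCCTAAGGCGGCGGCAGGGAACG

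RefSeq promoters were matched for 9 of the 10 members, 15 promoters in all. G and C made up 76% of the bases shown for Bcl2, 57.3% for Bax and 65.7% for Mcl1. Over the 15 promoters this share ran from 49.3% to 78% with a median of 65.7%, against a median of 52.7% over all 32851 promoters of the same length. These are descriptions of the sequence, and neither binding nor methylation was measured.

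Levels between genes were compared per length, as CPM per kb of the canonical GENCODE transcript. Bax had the highest level in all 3 groups, with medians of 152 CPM per kb in CD4cre, 60.3 in CD4IKK1Δ and 175 in CD4NIKΔ, and its range did not overlap that of the next gene in any group. In CD4cre it was followed by Bcl2 (35.3), Mcl1 (15.1), Bcl2l11 (6.26), Bad (4.43), Bid (3.28), Bbc3 (2.41), Pmaip1 (1.39), Bcl2l1 (0.521) and Bak1 (0.322 CPM per kb). Among these neighbours only the pairs Bax and Bcl2, and Bad and Bid, had ranges that did not overlap. In CD4NIKΔ the order began with Bax, Bcl2 (71.7) and Mcl1 (69.9), the last 2 overlapping, and Pmaip1 came next at 28.3 CPM per kb, above Bcl2l11 at 12.1 without overlap. In CD4IKK1Δ, Bad (7.67) and Mcl1 (6.14) followed Bax and overlapped, while Pmaip1 stood last at 0.0473 CPM per kb. Without CD4IKK1Δ replicates 1 and 2, Bcl2 (11.7) came before Bad (7.85) and Mcl1 (6.94), and Pmaip1 (0.313) before Bak1 (0.250 CPM per kb). Pmaip1 therefore ranked 8 of 10 in CD4cre, 10 in CD4IKK1Δ and 4 in CD4NIKΔ.

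The anti-apoptotic gene Bcl2, located on GRCm39 at chr1:106465908-106642060, had 339, 256 and 137 CPM in the CD4cre libraries, 20.0, 27.0, 31.1, 105 and 84.8 CPM in CD4IKK1Δ and 567, 375 and 519 CPM in CD4NIKΔ. All CD4IKK1Δ libraries lay below all CD4cre libraries, and all CD4NIKΔ libraries above them. Mcl1 (chr3:95566026-95570487), whose protein is turned over fast and sequesters BIM and NOXA, had 109, 16.2 and 52.8 CPM in CD4cre, 9.05, 8.11, 21.4, 38.3 and 24.2 CPM in CD4IKK1Δ and 259, 188 and 244 CPM in CD4NIKΔ. The CD4cre replicate 2 lay within the CD4IKK1Δ range, and the CD4NIKΔ libraries were all above the rest. Bcl2l1 (chr2:152622582-152673655) was low throughout, with 1.27, 1.70 and 3.06 CPM in CD4cre, 0.517, 4.19, 4.07, 4.57 and 2.84 CPM in CD4IKK1Δ and 9.60, 12.9 and 13.6 CPM in CD4NIKΔ. CD4cre and CD4IKK1Δ overlapped, and CD4NIKΔ lay above both.

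**Figure D1:**
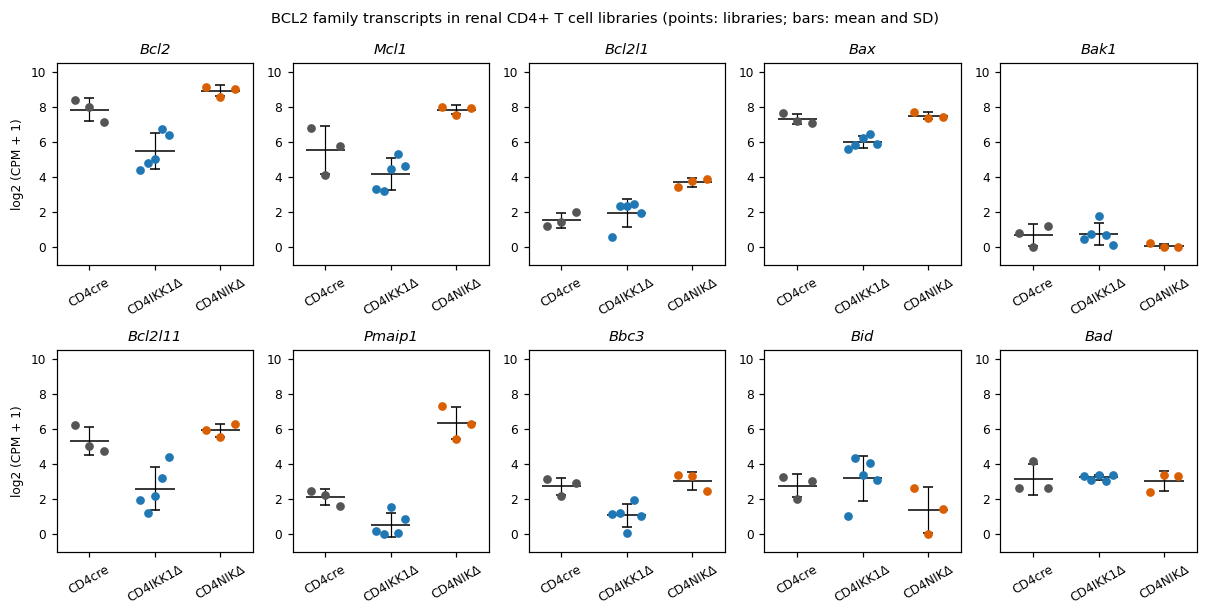
Level of each of the 10 BCL2 family genes, as log2 of CPM + 1 on the vertical axis, in the 3 genotype groups. Each point is 1 library, and bars give the mean and SD of the 3 CD4cre, 5 CD4IKK1Δ and 3 CD4NIKΔ libraries. Bcl2, Mcl1, Bcl2l1 and Pmaip1 in CD4NIKΔ lie above every CD4cre library, while Bad overlaps in all groups.

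Of the effectors, Bax (chr7:45111015-45116325) had 199, 148 and 137 CPM in CD4cre, 46.8, 55.9, 73.0, 86.7 and 58.8 CPM in CD4IKK1Δ and 211, 161 and 171 CPM in CD4NIKΔ. The CD4IKK1Δ libraries all lay below the other groups, which overlapped with each other. Over all 11 libraries, its SD of log2 CPM was 0.80, against 1.76 for Bcl2 and 0.54 for Bad. Bak1 (chr17:27238784-27247983) was close to the detection limit, where 3 counts correspond to 0.117 to 0.190 CPM. It had 20, 0 and 27 counts in CD4cre, 6, 13, 44, 12 and 2 counts in CD4IKK1Δ and 3, 0 and 0 counts in CD4NIKΔ. As all CD4NIKΔ libraries were at or under 3 counts, no fold against this group is given.

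Among the BH3-only genes, Bcl2l11 (chr2:127967958-128004476) had 74.9, 31.6 and 25.6 CPM in CD4cre, 2.91, 1.36, 3.56, 8.40 and 20.4 CPM in CD4IKK1Δ and 60.9, 45.2 and 77.5 CPM in CD4NIKΔ. All CD4IKK1Δ libraries were below both other groups. Pmaip1 (chr18:66591604-66598636), a p53 target whose product NOXA binds MCL-1, varied most of the 10 members, with an SD of log2 CPM of 3.59 over the 11 libraries. It had 4.61, 3.79 and 2.11 CPM in CD4cre, 0.129, 0, 1.98, 0.0497 and 0.856 CPM in CD4IKK1Δ and 158, 42.5 and 77.2 CPM in CD4NIKΔ. The groups did not overlap in any pair, and 3 of the 5 CD4IKK1Δ libraries held no more than 3 counts. Bbc3 (chr7:16042318-16052130), also a p53 target, had 7.76, 3.60 and 6.47 CPM in CD4cre, 1.23, 1.31, 0.0565, 2.88 and 1.04 CPM in CD4IKK1Δ and 9.60, 8.85 and 4.45 CPM in CD4NIKΔ. CD4IKK1Δ lay below both other groups, and these overlapped.

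Bid (chr6:120862525-120894171), which caspase-8 cleaves to link death receptors to mitochondria, had 8.72, 3.06 and 7.22 CPM in CD4cre, 1.10, 19.3, 9.61, 15.8 and 7.52 CPM in CD4IKK1Δ and 5.13, 0 and 1.76 CPM in CD4NIKΔ. The groups overlapped, and the CD4NIKΔ replicate 2 held 0 counts, which allows a level of up to 0.141 CPM by counting error alone. Bad (chr19:6918902-6929280), whose protein is kept inactive by survival kinases, had 5.19, 16.8 and 5.26 CPM in CD4cre, 9.11, 7.69, 9.39, 7.31 and 9.33 CPM in CD4IKK1Δ and 4.30, 9.24 and 9.18 CPM in CD4NIKΔ. All groups overlapped. Counting was not stated to use strand, and the exons of Bid share 3059 of 9796 bases with Bcl2l13 on the opposite strand, while those of Bad share 1130 of 4485 bases with Gm56656 and 914 with Gpr137. Without strand, reads within these shared bases cannot be told apart by position. For Bcl2 (558 of 9213 bases, D630008O14Rik), Bcl2l1 (476 of 5136, Gm74855), Bak1 (437 of 2407 with Ggnbp1 and 177 with Gm50253) and Bax (192 of 1856, Gm45808, on the same strand) each shared part was smaller.

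The comparison of CD4IKK1Δ with CD4cre asks what the loss of IKK1 in CD4+ T cells does to the family after IRI. Most members had lower levels in the libraries labelled CD4IKK1Δ, led by Bcl2l11, Pmaip1, Bcl2 and Bbc3, although none passed an FDR under 0.05. With edgeR's quasi-likelihood test, 0 of 10 members were called, as were 0 of 15653 genes tested (0%). Bax came closest, at a log2 fold change of -1.33 ± 0.20 (SE; 2.51-fold lower, FDR = 0.0551). The log2 fold change was -2.19 ± 0.62 for Bcl2 (FDR = 0.167), -2.59 ± 0.80 for Bcl2l11 (FDR = 0.173), -2.18 ± 0.86 for Bbc3 (FDR = 0.245), -1.55 ± 0.65 for Mcl1 (FDR = 0.289) and -2.53 ± 1.27 for Pmaip1 (FDR = 0.351). Single libraries moved some of these values by over 1.5-fold, as Mcl1 was at -0.76 and Bcl2l11 at -1.96 without CD4cre replicate 1, Bcl2l11 at -3.44 without CD4IKK1Δ replicate 5 and Pmaip1 at -3.71 without CD4IKK1Δ replicate 3. Bid at 0.75 ± 0.73, Bcl2l1 at 0.69 ± 0.77, Bak1 at 0.26 ± 1.40 and Bad at -0.09 ± 0.46 had standard errors as large as or close to the difference itself, so changes of about these sizes were not resolved in either direction.

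Before adjustment, 5 of the 10 members had a p under 0.05 in edgeR's test, all lower (Bax, Bcl2, Mcl1, Bcl2l11 and Bbc3), against 8.91% of all genes tested that were lower and 7.65% that were higher by this rule. At an FDR under 0.1, Bax alone was called, with 1.72% of all genes. The groups did not overlap, with CD4IKK1Δ lower, for 5 members (Bax, Bcl2, Bcl2l11, Bbc3 and Pmaip1), against 8.44% of all genes. DESeq2, the study's tool, called 3 members lower, Bax (adjusted p = 2.38e-06), Bcl2l11 (adjusted p = 0.00783) and Bcl2 (adjusted p = 0.0204), with 7.9% of the genes it tested called, 5.42% of them all being lower, and it gave no adjusted p for Bak1 and Pmaip1. The median log2 fold change was -1.44 over the members and 0.02 over all genes. The T cell markers moved with these members. All 15 of them were lower in CD4IKK1Δ, with a median of -2.04, and 5 did not overlap. Markers of other cells were lower too, with medians of -2.17 over 8 myeloid, -2.38 over 7 kidney tubule and -1.19 over 5 erythroid genes, of which 3, 3 and 4 did not overlap, and 0 passed the FDR threshold. The 8 neuronal markers had a median of 0.22, and 0 passed the FDR threshold. Scaling the libraries to the T cell markers moved the median of all genes to 4.42. The fold changes of Bax, Bcl2, Mcl1, Bcl2l11 and Bbc3 then turned positive without passing the test. Bad was called higher (log2 fold change 4.42, FDR = 0.0480), as were 53.7% of all genes, with 0.0511% called lower. Relative to that median 9 of 10 members were lower, but taking the median off largely undoes the scaling, so this is no separate result. For Bax the relative value was -1.35 before and -1.57 after the scaling. With a score of other cell markers as a covariate, the values of Bcl2, Mcl1, Bcl2l11 and Bbc3 turned positive too, and 0 members and 0 of 15653 genes were called. That score did not overlap between CD4IKK1Δ and CD4cre, so it and the genotype cannot be told apart. The part of T cell content and of the other cells in these differences was not tested further. Without CD4IKK1Δ replicates 1 and 2, the log2 fold change was -1.15 for Bax (FDR = 0.0738), -1.73 for Bcl2 (FDR = 0.246) and -2.03 for Bcl2l11 (FDR = 0.237), and 0 members were called, with 0.245% of all genes called, all of them lower.

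In the comparison of CD4NIKΔ with CD4cre, which asks the same of NIK, 3 of the 9 members tested rose and none fell. Pmaip1, which encodes NOXA, rose 26.3-fold, from 3.50 ± 1.28 to 92.6 ± 59.4 CPM (SD, n = 3 each). On the log2 scale this rise was 4.72 ± 0.56 (SE), to which edgeR's test gave an FDR of 0.00332. The anti-apoptotic genes Bcl2l1 and Mcl1 rose as well, by 2.56 ± 0.49 (FDR = 0.0145) and 1.95 ± 0.56 (FDR = 0.0418) on the log2 scale. Each of the 3 members was higher in 3 of 3 CD4NIKΔ libraries than in any CD4cre library. Of all 15209 genes tested, 21.1% were called, 12.1% higher and 8.97% lower. All 3 members also passed the more than 2-fold threshold, as did 10.4% of all genes in the higher direction.

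Bcl2 had a log2 fold change of 0.99 ± 0.33 (FDR = 0.0613) and did not overlap between the groups, and DESeq2 called it (adjusted p = 0.0167), as it did 15.2% of all genes in the higher direction. In total the groups did not overlap for 4 members, all higher in CD4NIKΔ, against 22.9% of all genes. Bcl2l11 at 0.47 ± 0.41, Bbc3 at 0.35 ± 0.50, Bax at 0.16 ± 0.21, Bad at -0.28 ± 0.58 and Bid at -1.45 ± 1.24 did not pass, with FDRs from 0.428 to 0.752. When single libraries were left out, Bid ranged from -2.86 to -0.86 and Bcl2l11 from 0.22 to 1.08, without a call. For Bax the interval of 2 SE reached from -0.26 to 0.58, which is the range of differences these libraries leave. Bak1 was removed by the expression filter.

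The median log2 fold change was 0.47 over the 9 members and -0.02 over all genes, while it was 2.11 over the 15 T cell markers, of which 14 were called higher. Neuronal markers moved the other way, as 7 of 8 were called lower. With the libraries scaled to the T cell markers, which puts the median of all genes at -2.04, Pmaip1 still had a log2 fold change of 2.98 and was called, Bcl2l1 (0.40) and Mcl1 (0.09) were not, and Bax, Bcl2l11, Bid and Bad were called lower, a split of 1 higher and 4 lower in place of 3 and 0, where 0.796% of all genes were called higher and 63.7% lower. Relative to that median, 7 of 9 members were higher, but taking the median off largely undoes the scaling, so this is no separate result. With a T cell marker score as a covariate, 0 members and 0 of all 15209 genes (0%) were called, and the log2 fold change of Pmaip1 was 5.89 ± 1.55. The call of Pmaip1 held in all 6 fits that left out 1 library, that of Bcl2l1 in 4 and that of Mcl1 in 2. Over these fits 692 to 4245 of all genes were called, against 3208 with all libraries. Without CD4NIKΔ replicate 2 or without replicate 3, where 936 and 692 genes were called in all, Pmaip1 was the only member called, with log2 fold changes of 5.08 and 4.84. Its lowest value was 4.09, without CD4NIKΔ replicate 1, and Mcl1 was at 2.72 without CD4cre replicate 1. The part of T cell content in these rises was not tested further.

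**Figure D2:**
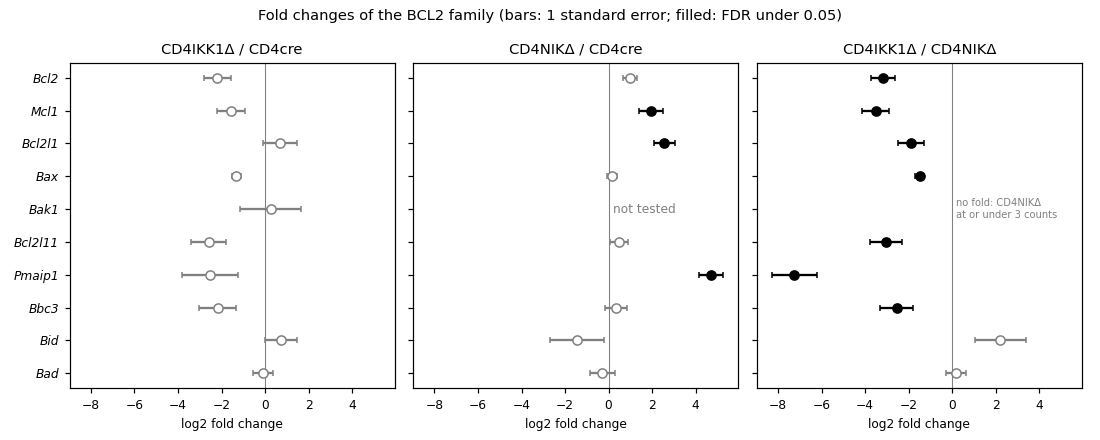
Log2 fold change of each member (horizontal axis) in the 3 comparisons, with bars of 1 standard error from edgeR's quasi-likelihood test. Filled points have an FDR under 0.05, which are 0 members for CD4IKK1Δ against CD4cre, 3 for CD4NIKΔ against CD4cre and 7 for CD4IKK1Δ against CD4NIKΔ, all on libraries scaled by TMM, while scaling to T cell markers turns 6 of the last 7 positive.

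The direct comparison of CD4IKK1Δ with CD4NIKΔ, fitted on all 11 libraries, gives the difference between these groups of libraries, whose T cell marker sums do not overlap, so that genotype and T cell content cannot be told apart. It shares its libraries with the comparisons above and is not independent of them. Of the 10 members, 7 were called lower in the libraries labelled CD4IKK1Δ, namely all 3 anti-apoptotic genes, Bax, and the BH3-only genes Pmaip1, Bcl2l11 and Bbc3. With libraries scaled to T cell markers, however, all of them but Pmaip1 had positive log2 fold changes, of which those of Bax and Bbc3 passed the test. On libraries scaled by TMM, 42.2% of all 16546 genes were called, 22% of all genes being lower and 20.2% higher, and 18.5% were lower by more than 2-fold, as were all 7 members. With a T cell marker score or a score of other cell markers as a covariate, 0 members were called, as were 340 and 0 of all genes. Pmaip1 fell by 7.25 ± 1.05 on the log2 scale (FDR = 0.000445), Mcl1 by 3.51 ± 0.62 (FDR = 0.00133), Bcl2 by 3.18 ± 0.55 (FDR = 0.00126) and Bcl2l11 by 3.06 ± 0.73 (FDR = 0.00677). Bbc3 fell by 2.54 ± 0.76 (FDR = 0.0168), Bcl2l1 by 1.89 ± 0.59 (FDR = 0.0206) and Bax by 1.49 ± 0.20 (FDR = 0.000189).

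The 7 members did not overlap between these groups, against 24.4% of all genes that were lower without overlap. Bid had a log2 fold change of 2.21 ± 1.17 (FDR = 0.152) and Bad of 0.18 ± 0.46 (FDR = 0.784), and Bak1 did not pass either (FDR = 0.113). When single libraries were left out, Bid ranged from 1.62 to 3.61 without a call. The median over the members was -2.22, and it stays so for any value of Bak1 above 0, whereas the T cell markers had a median of -4.07 with 14 of 15 called lower. Markers of other cells had medians of -4.09 (5 CD8 and NK genes), -4.27 (4 B cell), -1.94 (8 myeloid), -3.29 (8 kidney tubule) and -1.97 (5 erythroid). Of these, 4, 2, 4, 3 and 4 were called lower, while 7 of 8 neuronal markers were called higher. Scaled to the T cell markers, which puts the median of all genes at 6.46, the split was 5 higher and 0 lower in place of 0 and 7, where 85.2% of all genes were called higher and 0.369% lower. The 5 were Bax and Bbc3 together with Bid, Bad and Bak1, which are not among the 7, and Bak1 rests on 3, 0 and 0 counts in CD4NIKΔ. Relative to that median 7 of 10 members were lower, which again is no separate result, as taking the median off largely undoes the scaling. Without CD4IKK1Δ replicates 1 and 2, 6 members remained called, with Bbc3 lost (log2 fold change -2.51, FDR = 0.0624) and Pmaip1 at -6.61, where 37.2% of all genes were called and 19.7% were lower. With single libraries left out, Pmaip1 ranged from -8.37 (without CD4IKK1Δ replicate 3) to -6.62 (without CD4NIKΔ replicate 1), and Bcl2l11 reached -3.92 (without CD4IKK1Δ replicate 5). Bcl2l1 lost its call without CD4NIKΔ replicate 2 or 3 (-1.85 and -1.80) and Bbc3 without CD4NIKΔ replicate 1 or 2 (-2.35 and -2.43). Without CD4NIKΔ replicates 1, 2 and 3 in turn, 6665, 5525 and 5241 of all genes were called, against 6987 with all libraries. The part of T cell content and of the other cells was not tested further.

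**Figure D3:**
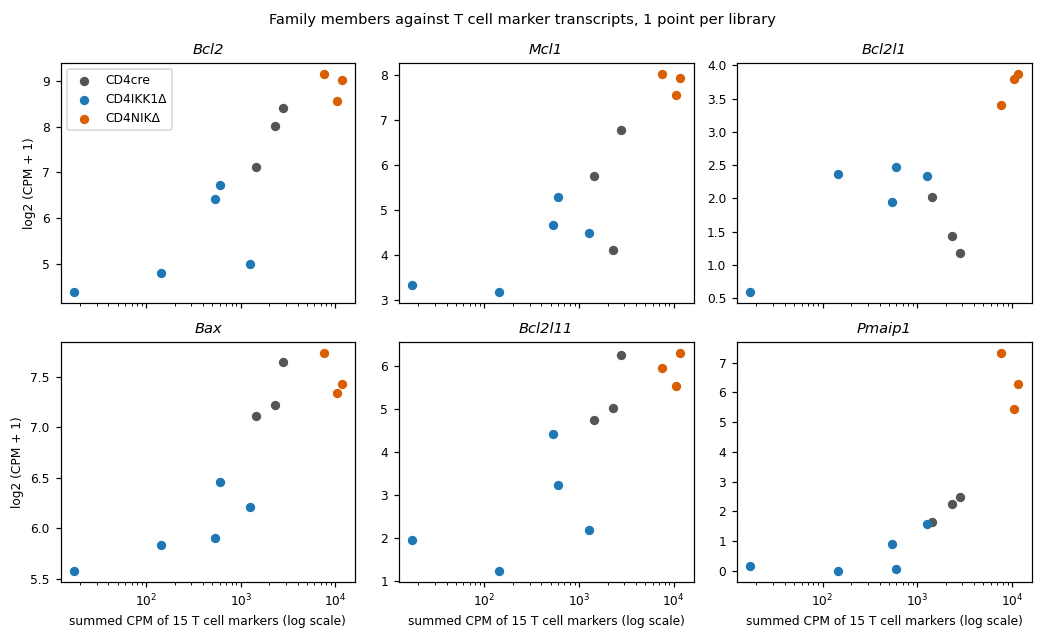
Level of 6 members as log2 of CPM + 1 (vertical axis) against the summed CPM of 15 T cell markers (horizontal axis, log scale), with 1 point for each of 11 libraries. The groups follow each other along the horizontal axis without overlap, and for Bcl2l1, 2 of the 3 CD4cre points lie below 4 of the 5 CD4IKK1Δ points although those have fewer T cell markers.

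Members were also set against each other within each library, where scaling cancels but cell content does not. A ratio can still follow the T cell content if other cells express the genes unequally, which was not tested. These ratios are descriptions without a test. The ratio of Bcl2 to Bax counts, which sets a main anti-apoptotic transcript against a main effector, was 1.00 to 1.73 in CD4cre, 0.426 to 1.44 in CD4IKK1Δ and 2.32 to 3.04 in CD4NIKΔ. The CD4NIKΔ libraries lay above all others, and the other groups overlapped. The ratio of Mcl1 to Bax showed the same order for CD4NIKΔ, at 1.17 to 1.43, against 0.110 to 0.549 in CD4cre and 0.145 to 0.442 in CD4IKK1Δ. By contrast, Bcl2 and Bcl2l11, whose proteins bind each other, kept overlapping ratios of 4.53 to 8.11, 4.17 to 19.8 and 6.70 to 9.31 in CD4cre, CD4IKK1Δ and CD4NIKΔ. The ratio of Bcl2l1 to Bcl2 was 0.0259 to 0.155 in CD4IKK1Δ, above all CD4cre libraries at 0.00374 to 0.0222 and overlapping with CD4NIKΔ at 0.0169 to 0.0345. Without CD4IKK1Δ replicates 1 and 2 these ratios ran in CD4IKK1Δ from 0.426 to 1.44 (Bcl2 to Bax), 0.294 to 0.442 (Mcl1 to Bax), 4.17 to 12.5 (Bcl2 to Bcl2l11) and 0.0335 to 0.131 (Bcl2l1 to Bcl2), which leaves the overlaps with CD4cre and CD4NIKΔ as they were.

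**Figure D4:**
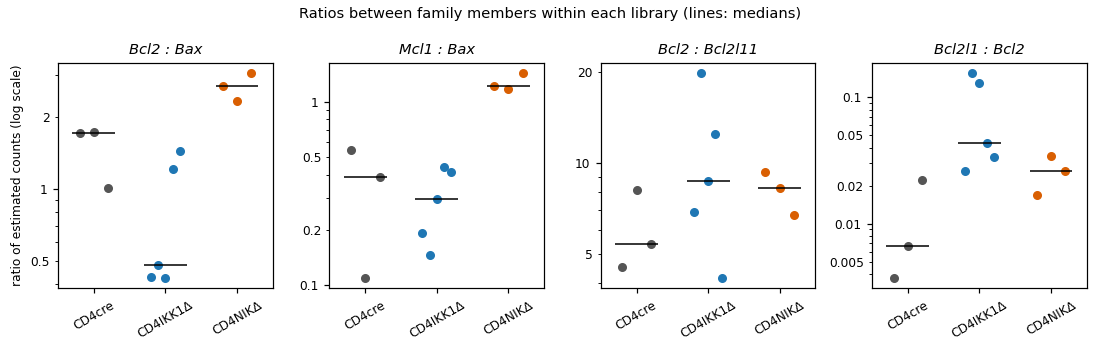
Ratios of estimated counts between members within each library, on log vertical axes, by group, with lines at the medians. Bcl2 to Bax and Mcl1 to Bax are highest in the 3 CD4NIKΔ libraries, Bcl2 to Bcl2l11 overlaps in all groups, and Bcl2l1 to Bcl2 is lowest in CD4cre apart from 1 library that overlaps with CD4NIKΔ.

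Set against the T cell markers, Pmaip1 was the only member whose CD4NIKΔ libraries all lay above those of CD4cre. It had 4.06 to 20.9 CPM per 1000 CPM of T cell markers in CD4NIKΔ and 1.46 to 1.65 in CD4cre, while the 0 to 7.49 of CD4IKK1Δ overlapped with both, and without replicates 1 and 2 its 0.0831 to 1.60 overlapped with CD4cre alone. Bax had 14.6 to 27.9 in CD4NIKΔ and 64.2 to 95.2 in CD4cre, and Bcl2 had 35.8 to 74.8 and 95.6 to 121, so both were lower per T cell marker transcript in CD4NIKΔ. Bcl2l11 (4.32 to 8.03 against 13.7 to 26.8), Bbc3 (0.380 to 1.27 against 1.56 to 4.50), Bid (0 to 0.677 against 1.33 to 5.02) and Bad (0.568 to 0.883 against 1.85 to 7.31) were lower without overlap as well, whereas Mcl1, Bcl2l1 and Bak1 overlapped. The share of all genes without overlap was not computed on this scale. With libraries scaled to the T cell markers, 63.7% of all genes were called lower and 0.796% higher between these groups, so lower values are not particular to the members. In CD4IKK1Δ, this quantity spread from 57.9 to 2712 for Bax, the highest value coming from replicate 1, where T cell markers summed to 17.3 CPM, and it reached no more than 145 without replicates 1 and 2. Without these replicates, Bcl2l1 (3.23 to 7.65 against 0.453 to 2.13), Bid (7.62 to 26.4 against 1.33 to 5.02) and Bad (7.44 to 17.4 against 1.85 to 7.31) lay above all CD4cre libraries, as they did with them. With all CD4IKK1Δ libraries the other members overlapped with CD4cre, and with T cell marker scaling 53.7% of all genes were called higher. The pattern over the 11 libraries most like that of Pmaip1, by the root mean square difference of centred log2 CPM, was that of Evi2b (0.716), Cd48 (0.757) and Akr1c13 (0.907). Cd48, which encodes a leukocyte adhesion receptor, had 9.73 to 26.1 CPM in CD4cre, 0 to 13.6 in CD4IKK1Δ and 149 to 629 in CD4NIKΔ.

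The other genes of the apoptosis pathway were described from lists fixed by their function, and their counts stand beside the 12.1% of all genes called higher and 8.97% called lower between CD4NIKΔ and CD4cre. Of 15 further BCL2 family genes, 12 were tested between CD4NIKΔ and CD4cre, and 3 were called higher and 2 lower. Bcl2l12 (log2 fold change 3.54), Bcl2a1b (1.78) and Bcl2a1d (1.77) rose, while Bnip3 (-1.40), a mitophagy gene induced by hypoxia, and Hrk, a BH3-only gene of neurons, fell. Bcl2a1b and Bcl2a1d encode the anti-apoptotic protein A1 and are near-identical copies, so the split of reads between them is uncertain. In the step after the mitochondria, 5 of 16 genes were called higher and 1 lower. Among them were Apaf1 (2.17), the scaffold of the apoptosome, the executioner caspase Casp6 (1.74), and Vdac2 (1.57), a channel that holds BAK.

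In the death receptor pathway, 4 of 13 genes were called higher and 0 lower between CD4NIKΔ and CD4cre. They were Fasl (2.75), the ligand of Fas, Casp8 (2.29), the initiator caspase that cleaves BID, Traf2 (1.81), an adaptor of TNF receptors, and Cflar (1.34), an inhibitor of caspase-8. Of 13 genes of p53, FOXO and their targets, 4 were called higher and 1 lower, with Trp53 itself at 2.46, Foxo1, which can induce Bcl2l11, at 1.43, Ccng1 at 1.31 and Zmat3 at -1.20. Of 13 regulators of the family, 3 were called higher and 4 lower. Il2rb (1.69), a chain of the IL-2 and IL-15 receptors, and Ywhaz (1.74), an adaptor protein that holds phosphorylated BAD, rose, and Dynll2 (-0.77), a dynein light chain, and Fbxw7 (-1.14), which targets MCL-1 for degradation, fell. The lists held called genes in both directions, except the death receptor pathway, and their median log2 fold changes were between 0.37 and 1.17, against -0.02 for all genes and 2.11 for T cell markers. Scaled to the T cell markers, 0 genes of these lists were called higher, and 5 further family genes, 10 downstream of the mitochondria, 2 of the death receptor pathway, 7 of p53, FOXO and targets and 7 regulators were called lower, beside 63.7% of all genes. All 5 medians were then negative, from -1.57 to -0.69, with that of all genes at -2.04. The scaling moves all genes together, so their place above that median largely repeats the result without it.

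Between CD4IKK1Δ and CD4cre, 0 genes of these 5 lists were called with edgeR on libraries scaled by TMM, while with T cell marker scaling 5 further family genes, 6 downstream of the mitochondria, 1 of the death receptor pathway, 6 of p53, FOXO and targets and 5 regulators were called higher and 0 lower, beside 53.7% of all genes called higher. Without CD4IKK1Δ replicates 1 and 2, 1 regulator was called lower and 0 other genes of the lists were called, beside 0.245% of all genes, all lower. The 2 genes with the smallest unadjusted p of each list were Hrk (0.54), Birc3 (-1.85), an inhibitor of apoptosis, Apaf1 (1.60), Fbxw7 (0.36), Trib1 (-1.47), Trp53inp1 (-1.82) and Cdkn1a (-1.29), with FDRs from 0.113 to 0.165, and Traf2 (-1.44), Casp8 (-3.04) and Bcl2a1a (-2.98), with FDRs up to 0.303. At an unadjusted p under 0.05, where 7.65% of all genes were higher and 8.91% lower, the counts of higher and lower genes were 0 and 4 in the death receptor pathway, 0 and 3 for p53, FOXO and targets, 3 and 1 downstream of the mitochondria, 3 and 3 for the regulators and 1 and 0 for the further family genes. Of these 10 genes, DESeq2 called Hrk, Birc3, Apaf1, Fbxw7, Trib1, Trp53inp1 and Cdkn1a, did not call Traf2 and Casp8, and gave no adjusted p for Bcl2a1a.

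Between CD4IKK1Δ and CD4NIKΔ, the death receptor list had 8 of 13 genes called lower and 0 higher, with Casp8 at -5.33, Traf2 at -3.26, Fas at -2.53 and Cflar at -2.02. Of all genes, 22% were called lower and 20.2% higher here. In the list of p53, FOXO and targets, 8 of 13 were lower and 1 higher, with Trp53inp1 at -3.39, Foxo1 at -1.96, Ccng1 at -1.62 and Zmat3 at 1.12. Of the genes downstream of the mitochondria, 7 of 16 were lower and 3 higher, with Birc2, an inhibitor of apoptosis, at -1.19, against Vdac1 at 1.13 and Cycs, the gene of cytochrome c, at 0.84. Of 14 further family genes, 7 were lower and 2 higher, with Bcl2a1d at -4.14 and Bcl2a1b at -4.00, against Hrk at 1.66 and Bnip3 at 1.41. The regulators were divided, with 7 of 13 lower and 4 higher, and the 4 higher ones were Fbxw7 (1.48), the calcineurin subunit Ppp3ca (1.33), Dynll1 (1.23), which tethers BIM, and Dynll2 (0.87). Neuronal markers were higher in the same comparison, 7 of 8 being called, and their part in the higher genes was not tested. All 5 list medians were negative, from -2.24 to -0.54, but turned positive (3.13 to 6.00) with the libraries scaled to the T cell markers, where the median of all genes was 6.46. With that scaling 0 genes of the lists were called lower, and those called higher were 6 of the death receptor pathway, 11 of p53, FOXO and targets, 12 downstream of the mitochondria, 7 further family genes and 9 regulators, beside 85.2% of all genes. Without CD4IKK1Δ replicates 1 and 2 and scaled by TMM, the counts of lower and higher genes were 8 and 0 in the death receptor pathway, 7 and 2 for p53, FOXO and targets, 7 and 4 downstream of the mitochondria, 5 and 2 of the further family and 6 and 4 of the regulators. Of all 16190 genes in that fit, 37.2% were called, with 3188 lower (19.7%) and 2841 higher.

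**Figure D5:**
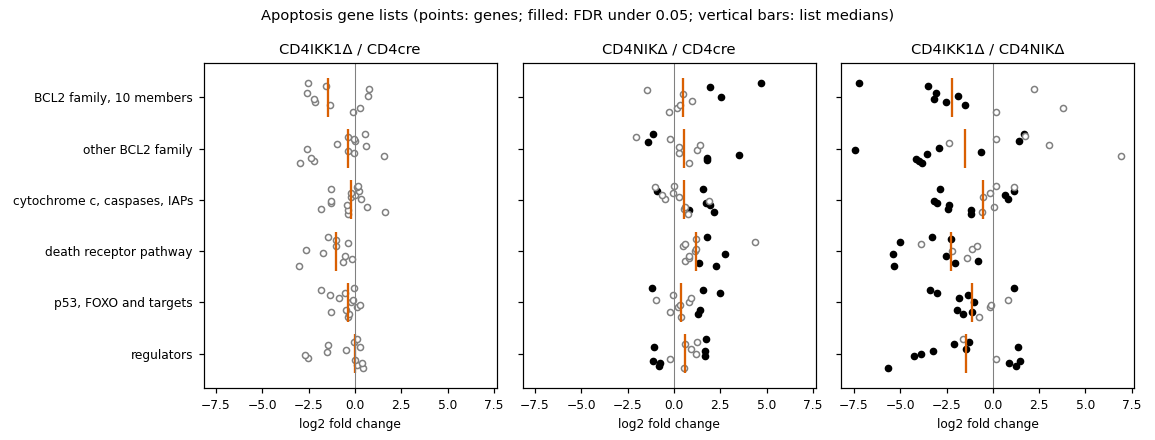
Log2 fold changes (horizontal axis) of the 10 members and of 5 further apoptosis lists in the 3 comparisons, with 1 point per gene, filled where the FDR was under 0.05, and vertical bars at the list medians. The medians lie below 0 for CD4IKK1Δ against CD4cre, above 0 for CD4NIKΔ against CD4cre, where all lists have medians below the 2.11 of the T cell markers, and below 0 for CD4IKK1Δ against CD4NIKΔ, all on libraries scaled by TMM, while the signs turn with scaling to T cell markers.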

How the data were processed

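Renal CD4+ T cells were enriched with an isolation kit and sorted by the authors, and RNA was amplified with a SMARTer kit and sequenced as paired reads of 150 nt. Reads were trimmed with Trimmomatic 0.36 and quantified with kallisto, whose version, annotation and strand setting are not given in the sources used here. The paper names GRCm39 as the reference, while the submitters' processing notes name mm10. The values deposited by the authors are estimated counts per gene symbol, without normalization or filtering, for 35814 symbols and 11 libraries. Samples were grouped by the genotype in their titles, as biological replicates. All 55 pairs of libraries were compared, and 0 held identical values. All columns of per-sample values were used.

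Rounding of the estimated counts to integers was followed by edgeR's expression filter, TMM normalization and the quasi-likelihood F test in its robust form (edgeR 4.0.16 under R 4.3.3). P values were adjusted by Benjamini-Hochberg over all genes, at an FDR under 0.05. Standard errors were taken from the F statistic. The study's tool, DESeq2 (1.42.0), was an alternative. A marker score averages log2 CPM (prior count 2) over its list. The fits were checked on simulated data. Fits against CD4cre held the compared groups only, while CD4IKK1Δ against CD4NIKΔ was fitted on all 11 libraries. The members, lists, tests and alternatives were chosen with earlier results of these data known. Named were the 10 members, from each further list and comparison the up to 4 genes with the smallest FDR (Hrk is an exception, named to complete a count after its values were seen) or, where none passed, the 2 with the smallest p, the targeted genes, the T cell receptor constant genes and the 3 genes most like the most variable member. A gene that this rule names is not reported here. Marker lists also covered CD8 and NK cells, B cells, myeloid cells, neutrophils, tubule, endothelium and stroma, erythroid cells, neurons and glia. Of the symbols, 33508 (93.6%) are in GENCODE release M39, from which coordinates on GRCm39 were taken, and promoters are from RefSeq on GRCm38.p6. Total counts of 15751632 to 25737046 make 3 counts 0.117 to 0.190 CPM, which covers counting error only.

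The alternatives were DESeq2 on the compared or all libraries, RLE, upper-quartile or no factors, scaling to the T cell markers, filters of 1 count in any or 10 counts in every library, other sets of libraries in the fit, a non-robust fit, a block for the replicate number, thinned counts, marker scores as covariates, other thresholds and leaving out libraries.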

Additional observations from a re-analysis of the deposited data

Results flagged for a closer look

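Bcl2l1 in CD4IKK1Δ replicate 1 had 0.517 CPM and lay far below the other 4 libraries of its group, since its gap to the nearest, on log2 of CPM + 1, was 0.714 of the whole range against Dixon's critical value of 0.710. Of the 10 members tested in this way in CD4IKK1Δ, this was the only one, and chance alone marks about 5% of groups. The same library had the fewest T cell receptor counts. Its part in the low value was not tested.

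The differences of both groups from CD4cre were unequal, by a test of the difference itself (CD4IKK1Δ against CD4NIKΔ, in which CD4cre cancels), for 7 members, with log2 fold changes of -7.25 for Pmaip1, -3.51 for Mcl1, -3.18 for Bcl2, -3.06 for Bcl2l11, -2.54 for Bbc3, -1.89 for Bcl2l1 and -1.49 for Bax. In the same test 42.2% of all 16546 genes were called, 22% of all genes being lower and 20.2% higher. The T cell markers differed in the same direction as the 7 members, with a median of -4.07. With the T cell score or the score of other cells as a covariate 0 members were called, as were 340 and 0 of all 16546 genes, and Pmaip1 was at -4.14 and -9.33. With T cell marker scaling 5 members were called higher and 0 lower, beside 85.2% and 0.369% of all genes. Genotype and T cell content cannot be told apart.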

How the results depend on the processing

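Of the results for single members, 571 kept their direction and their side of the threshold, 34 kept the direction but lost the call, 20 gained one and 33 changed sign. In CD4IKK1Δ against CD4cre, the count of called members went from 0 to 3 with DESeq2 on the compared or all libraries, where 985 of 12462 and 804 of 17063 genes were called. It went to 1 with T cell marker scaling (Bad, higher), where 8419 of 15653 genes were called. Bax alone was called, lower, with a filter of 1 count in any library (60 of 23700 genes called) or 10 counts in every library (227 of 10954). The same held with all 11 libraries in the fit (132 of 16546) or an FDR under 0.1 (269 of 15653). The count was 0 to 1 when single libraries were left out (1 without CD4IKK1Δ replicate 4, where 25 of 15296 genes were called). In CD4NIKΔ against CD4cre the count went from 3 to 5 with T cell marker scaling, where 9806 of 15209 genes were called. It was 4 with DESeq2 on the compared libraries (4995 of 17563 genes called) or with 10 counts in every library (3938 of 12091). An FDR under 0.1 gave 4 as well, and its count over all genes is not given here. With all 11 libraries in the fit it was 2 (3078 of 16546). It was 0 with the T cell score and 1 with the score of other cells as a covariate (where 0 and 481 of all genes were called, against 3208). With single libraries left out it was 1 to 4 (1 without CD4NIKΔ replicate 2 or 3), where 692 to 4245 genes were called. In CD4IKK1Δ against CD4NIKΔ the count went from 7 to 8 with DESeq2 on the compared libraries (7 lower and Bak1 higher, with 7599 of 18570 genes called). It went to 4 with 10 counts in every library, where 5 members were tested and 6201 of 10567 genes were called. With either score it went to 0 (340 and 0 of all genes, against 6987). With single libraries left out it was 5 to 7 (6, 5 and 6 without CD4NIKΔ replicate 1, 2 and 3), where 5241 to 6808 genes were called. The T cell score did not overlap between any 2 groups, so that it and the genotype cannot be told apart. The score of other cells separated CD4IKK1Δ from both other groups, but was 2.25 to 2.30 in CD4cre and 2.26 to 2.92 in CD4NIKΔ, which overlap. Of all genes, DESeq2 called 985 in CD4IKK1Δ against CD4cre, where edgeR called 0 (1198 higher and 1394 lower at an unadjusted p under 0.05).

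Scaled to the T cell markers, log2 fold changes against CD4cre turned to 2.84 (Bax), 1.33 (Bcl2), 2.10 (Mcl1), 0.90 (Bcl2l11), 2.21 (Bbc3) and 4.42 (Bad) in CD4IKK1Δ and to -1.76 (Bax), -0.88 (Bcl2), -1.41 (Bcl2l11) and -1.56 (Bbc3) in CD4NIKΔ. Between CD4IKK1Δ and CD4NIKΔ they turned to 4.65 (Bax), 2.26 (Bcl2), 3.33 (Bcl2l1), 2.05 (Mcl1), 2.33 (Bcl2l11) and 3.81 (Bbc3), which follows from the scaling, as it moves the median of all genes to 4.42, -2.04 and 6.46. Upper-quartile factors moved that median to 0.11, -0.16 and 0.30 and turned Bad to 0.0017 in CD4IKK1Δ against CD4cre. With the score of other cells as a covariate, Bak1 (-2.74), Bcl2 (2.28), Mcl1 (1.92), Bcl2l11 (2.28) and Bbc3 (0.28) turned in CD4IKK1Δ against CD4cre, and Bak1 (-1.79) and Bcl2l1 (0.19) against CD4NIKΔ, where the fitted value of Bak1 rests on 3, 0 and 0 counts and is no measure of a fold. With the T cell score, Bcl2l11 (-1.56) and Bid (1.18) turned in CD4NIKΔ against CD4cre. With single libraries left out, the values changed sign within a range of -0.68 to 1.11 (Bak1) and -0.37 to 0.71 (Bad) in CD4IKK1Δ against CD4cre, -0.57 to 0.54 (Bad) in CD4NIKΔ against CD4cre and -0.11 to 0.34 (Bad) in CD4IKK1Δ against CD4NIKΔ. Apart from scaling, the cause was not tested.

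The replicate numbers did not pair the samples, as deviations of the 9 same-numbered pairs correlated at -0.089 to 0.077. With the replicate number as a block, the counts of members called were 0, 3 and 7, Bad turned to 0.19 in CD4IKK1Δ against CD4cre, and 3, 1187 and 5749 genes were called in all, in place of 0, 3208 and 6987. At this depth, Bak1 and, in CD4IKK1Δ, Pmaip1 are limited by counts close to 0.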

Other observations

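Markers of other cells were also present in the libraries. Myeloid markers (10 genes) summed to 349 to 1518 CPM in CD4cre, 83.3 to 197 CPM in CD4IKK1Δ and 529 to 822 CPM in CD4NIKΔ, with 4 of 8 tested genes lower in CD4IKK1Δ than in CD4NIKΔ and 0 higher. B cell markers (6 genes) summed to 67.5 to 140 CPM in CD4cre, 4.14 to 25.6 CPM in CD4IKK1Δ and 193 to 663 CPM in CD4NIKΔ. Markers of CD8 T and NK cells (6 genes) reached 12.7 to 41.2 CPM, 0.452 to 11.4 CPM and 68.9 to 116 CPM in the same order. Neutrophil markers stayed at or below 7.12 CPM in all libraries.

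Kidney tubule markers (8 genes) summed to 18.4 to 79.8 CPM in CD4cre, 3.40 to 11.0 CPM in CD4IKK1Δ and 13.0 to 110 CPM in CD4NIKΔ, and those of endothelium and stroma to 17.2 to 21.6 CPM, 9.26 to 12.9 CPM and 23.3 to 51.7 CPM. Erythroid genes, mainly of hemoglobin, were high in all groups, at 2078 to 2680 CPM, 532 to 1612 CPM and 1177 to 8183 CPM. Glial markers (6 genes) summed to 459 to 603 CPM, 462 to 665 CPM and 148 to 382 CPM. Which of these cells contributed transcripts of the BCL2 family was not tested.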
